A study of Homo sapiens with 12 samples.

Results

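The 7 genes described here are the aryl hydrocarbon receptor gene AHR, its dimer partner gene ARNT, the repressor genes AHRR and TIPARP, and the cytochrome P450 genes CYP1A1, CYP1A2 and CYP1B1. They were taken by symbol from a deposited table of 18668 genes, and all 7 were among the 17702 genes that passed the filter on low counts. RNA was sequenced from 22Rv1, a human line of castration-resistant prostate carcinoma cells with a wild-type genotype label. Cells were exposed for 24 h to a targeted protein degrader, to an autophagy-activating ligand, to the prostate cancer drug enzalutamide, or to vehicle. Each of the 4 groups had 3 biologically independent libraries. The labels know the degrader and the ligand by code numbers and give no structures, and doses are not given in them, so no comparison between compounds is at a known matched dose. All libraries come from 1 cell line, and in bulk RNA a change in the share of cells that express a gene cannot be told apart from a change per cell.

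The aryl hydrocarbon receptor (AhR) is a transcription factor of the basic helix-loop-helix PAS family. It is held in the cytosol by a complex with HSP90 chaperones, enters the nucleus when bound by aromatic ligands such as dioxin, pairs with ARNT and binds xenobiotic response elements. CYP1A1, CYP1A2 and CYP1B1, which oxidise polycyclic aromatic hydrocarbons and estrogens, are its classic induced genes, and AHRR and TIPARP are induced genes whose products restrain the receptor. CYP1B1 is known to be raised in prostate tumours.

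The promoters of the members are shown because the core of the xenobiotic response element, GCGTG, is short enough to be looked for in them directly. RefSeq windows of 250 bases before an annotated start (build GRCh38.p14) were at hand for 6 of the 7 members, 9 windows in all; CYP1B1 had none. Those of CYP1A1, CYP1A2, TIPARP and AHRR (the first annotated start of each) read as follows, 5′ to 3′ on the gene's strand, with GCGTG or its reverse complement CACGC in capitals.
CYP1A1 (chr15:74725529-74725778, minus strand): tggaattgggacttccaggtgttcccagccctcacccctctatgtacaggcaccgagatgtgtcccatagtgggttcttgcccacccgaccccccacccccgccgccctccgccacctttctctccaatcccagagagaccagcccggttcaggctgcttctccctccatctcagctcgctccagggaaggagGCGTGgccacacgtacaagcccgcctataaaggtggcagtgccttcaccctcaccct
CYP1A2 (chr15:74748595-74748844, plus strand): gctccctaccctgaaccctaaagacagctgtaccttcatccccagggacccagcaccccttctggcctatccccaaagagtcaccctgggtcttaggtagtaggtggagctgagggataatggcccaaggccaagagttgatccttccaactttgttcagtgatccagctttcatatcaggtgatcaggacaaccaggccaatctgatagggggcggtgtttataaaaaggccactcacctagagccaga
TIPARP (chr3:156674340-156674589, plus strand): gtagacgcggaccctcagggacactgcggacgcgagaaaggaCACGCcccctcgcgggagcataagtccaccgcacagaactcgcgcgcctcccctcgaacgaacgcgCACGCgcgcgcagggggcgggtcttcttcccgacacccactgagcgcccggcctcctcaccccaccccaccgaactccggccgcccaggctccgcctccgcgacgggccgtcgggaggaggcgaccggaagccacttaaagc
AHRR (chr5:321464-321713, plus strand): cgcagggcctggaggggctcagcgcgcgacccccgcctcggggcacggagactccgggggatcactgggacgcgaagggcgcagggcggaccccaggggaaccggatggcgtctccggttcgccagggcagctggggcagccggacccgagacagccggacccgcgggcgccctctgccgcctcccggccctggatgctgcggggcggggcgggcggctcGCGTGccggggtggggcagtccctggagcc
Positions below are counted back from the annotated start. CYP1A1 held 1 GCGTG, from -57 to -53. It also held TATAAA, the letters of the classic core promoter box, from -32 to -27. CYP1A2 held TATAAA from -29 to -24 and 0 matches to GCGTG. TIPARP held 2 matches on the opposite strand, from -208 to -204 and from -142 to -138, while the windows at its other starts held 0. AHRR held 1 match from -30 to -26, which was also its match to the longer TNGCGTG, and its second window held 2 further matches to GCGTG. The AHR and ARNT windows held 0. Of all 35116 RefSeq windows of this length, 32.2% held GCGTG on either strand, 4.52% held TNGCGTG, and 6.8% held TATAAA on the gene's strand. A match is a run of letters and not a measured binding site, and xenobiotic response elements farther upstream lie outside these windows.

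Counted reads per library came to 58.3 to 77.2 M with the degrader, 55.5 to 71.8 M with the ligand, 59.4 to 69.3 M with enzalutamide and 60.2 to 74.8 M with vehicle. Degrader libraries scored -27.4 to -25.7 on the first principal component of log2 CPM (47.4% of variance), and those of the remaining groups scored 3.56 to 12.6. All 7 luminal prostate markers were listed, at a summed 1790 to 1910 TPM (a level scaled by transcript length and library size) with the degrader, 2350 to 2440 TPM with the ligand, 2190 to 2320 TPM with enzalutamide and 2490 to 2630 TPM with vehicle. Of 2 hepatocyte markers ALB was listed, at 142 to 171 TPM with the degrader, 185 to 211 TPM with the ligand, 236 to 246 TPM with enzalutamide and 195 to 208 TPM with vehicle, and APOA1 was not. Of 4 stromal markers 3 were listed (COL1A2 was not), at a summed 20.5 to 23.9 TPM with the degrader, 22.4 to 24.2 TPM with the ligand, 21.7 to 23.5 TPM with enzalutamide and 23.6 to 26.7 TPM with vehicle. The part of these shifts in the results below was not tested. The basal markers KRT5, KRT14 and TP63, the leukocyte markers PTPRC and CD3E and the endothelial markers PECAM1 and VWF were not listed, and the table lists a gene where every library has at least 1 read.

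The degrader was set against vehicle to ask what 24 h of exposure did to transcript levels. CYP1A1 and CYP1A2 rose about 5-fold, TIPARP rose by 0.36 on the log2 scale, and the receptor gene AHR, ARNT, AHRR and CYP1B1 did not pass the test. A gene was called at a Benjamini-Hochberg adjusted p under 0.05 over all genes tested, by edgeR's quasi-likelihood test. By that rule 3 of the 7 members were higher and 0 lower with the degrader, where 32.7% of all genes were called, 16.4% higher and 16.4% lower. The median log2 fold change was 0.18 over the members and 0.01 over all genes tested.

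CYP1A1, the most strongly inducible of the aryl hydrocarbon hydroxylases, had 73.7, 61.3 and 60.4 CPM (counts scaled to library size) in the degrader libraries, against 13.6, 10.8 and 10.9 CPM in the vehicle libraries. Every degrader library lay far above every vehicle library. The log2 fold change was 2.47 (SE 0.15, 95% confidence interval 2.14 to 2.80, adjusted p = 9.56e-08), a 5.53-fold rise that was the 17th largest among all genes tested.

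CYP1A2, its neighbour on chromosome 15 and chiefly a liver enzyme, had 15.3, 13.3 and 14.0 CPM in the degrader libraries, against 3.47, 3.22 and 2.42 CPM in the vehicle libraries. These groups did not overlap either. The log2 fold change was 2.22 (SE 0.14, interval 1.93 to 2.51, adjusted p = 4.49e-09), which is 4.66-fold and the 23rd largest rise.

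TIPARP, a mono-ADP-ribosyltransferase that acts on AhR, had 19.8, 21.0 and 22.7 CPM in the degrader libraries, against 16.6, 16.7 and 16.2 CPM in the vehicle libraries. Its rise was small but every degrader library exceeded every vehicle library (log2 fold change 0.36, SE 0.07, interval 0.20 to 0.52, adjusted p = 0.00131).

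CYP1B1, the CYP1 enzyme most typical of tissues outside the liver, had 7.60, 7.37 and 6.58 CPM in the degrader libraries, against 6.15, 6.07 and 6.88 CPM in the vehicle libraries. The groups overlapped, and the log2 fold change of 0.18 did not pass (interval -0.01 to 0.37, adjusted p = 0.144). The upper end of that interval lies below the lower end for CYP1A1 and for CYP1A2.

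AHR itself had 32.8, 33.2 and 34.6 CPM in the degrader libraries, against 28.9, 32.6 and 32.5 CPM in the vehicle libraries. The degrader libraries were the higher ones by a narrow margin, and the log2 fold change was 0.10 (interval -0.03 to 0.23, adjusted p = 0.238). ARNT had 90.8, 84.1 and 90.4 CPM in the degrader libraries, against 81.6, 80.2 and 83.8 CPM in the vehicle libraries. These groups also lay apart narrowly, with a log2 fold change of 0.11 (interval 0.02 to 0.21, adjusted p = 0.0678). AHRR, a competitor of AhR for ARNT, had 4.99, 4.84 and 4.71 CPM in the degrader libraries, against 4.96, 4.83 and 4.47 CPM in the vehicle libraries. Its libraries overlapped almost fully (log2 fold change 0.03, adjusted p = 0.867). Counted without a model, 23.1% of all genes had every degrader library above every vehicle library, and AHR, ARNT, CYP1A1, CYP1A2 and TIPARP were the members that did.

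**Figure D1:**
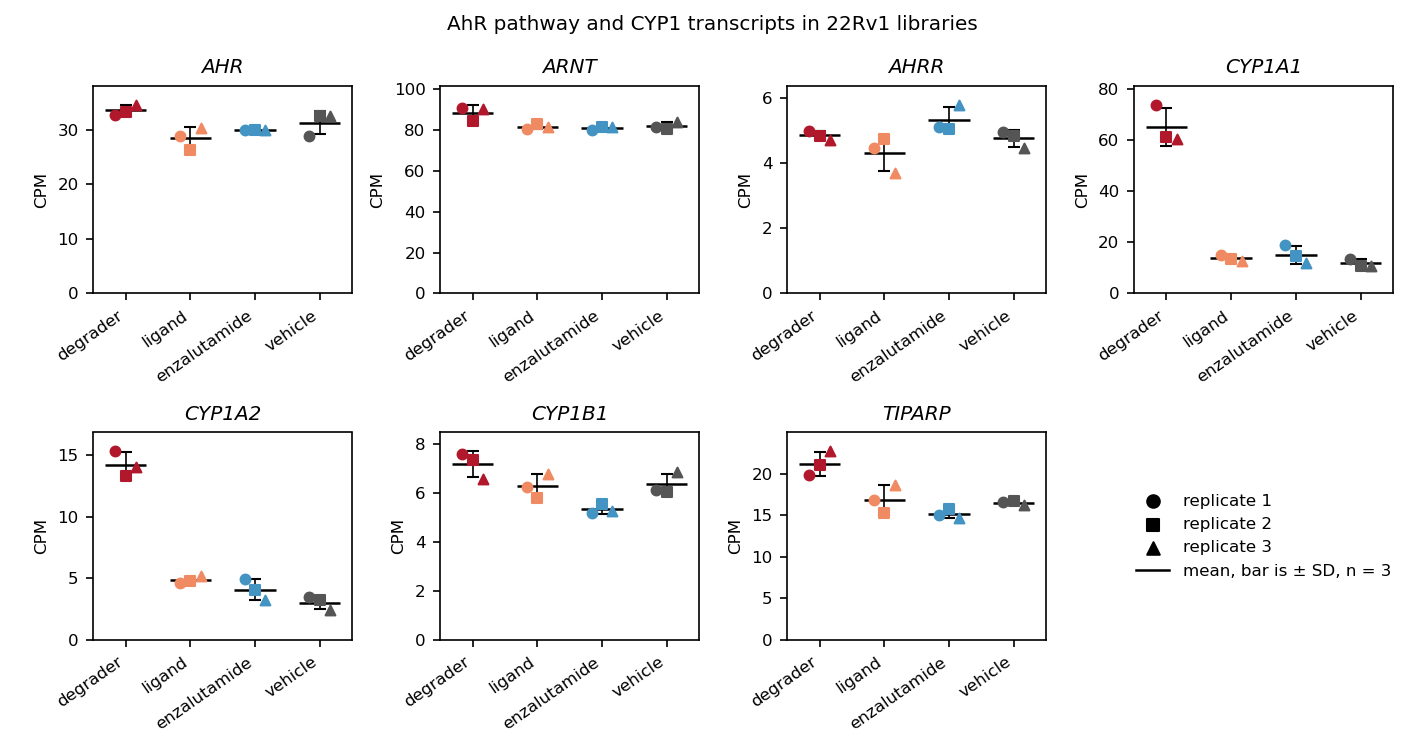
CPM (counts scaled to library size, linear axis from 0, with a scale of its own for each gene) of the 7 genes in the degrader, ligand, enzalutamide and vehicle groups; points are libraries, their shape is the replicate number, and the line and bar are mean and SD (n = 3). The degrader libraries stand at 60.4 to 73.7 CPM for CYP1A1 and 13.3 to 15.3 CPM for CYP1A2, while AHR, ARNT and AHRR lie close together in the 4 groups.

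Scaled by transcript length, the order of the members differed between degrader and vehicle cells. With the degrader the mean TPM was 52.1 for CYP1A1, 39.2 for ARNT, 11.4 for TIPARP, 11.2 for AHR, 9.44 for CYP1A2, 2.90 for CYP1B1 and 1.80 for AHRR. CYP1A1 libraries lay above ARNT libraries there, and TIPARP and AHR libraries overlapped. With vehicle the mean TPM was 35.6 for ARNT, 10.3 for AHR, 9.21 for CYP1A1, 8.71 for TIPARP, 2.53 for CYP1B1, 1.98 for CYP1A2 and 1.73 for AHRR. AHR, CYP1A1 and TIPARP overlapped in the vehicle libraries, as did CYP1A2 and AHRR, so their order there is within the spread.

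In the authors' deposited table the fold change of degrader over vehicle was 5.51 for CYP1A1 (adjusted p 7.63e-41), 4.64 for CYP1A2 (5.3e-55) and 1.28 for TIPARP (4.91e-05). In the authors' deposited table ARNT stood at 1.08 (0.0573).

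The ligand was set against vehicle in the same model, with the same 3 vehicle libraries. By edgeR 0 of the 7 members were called, where 0.237% of all genes were called, 0.203% higher and 0.0339% lower; 2 members, AHR and CYP1A2, had an unadjusted p under 0.05, DESeq2 called 1, CYP1A2, and limma-voom called 0. The median log2 fold change was -0.01 over the members and 0.00 over all genes.

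CYP1A2 had 4.65, 4.79 and 5.17 CPM in the ligand libraries, all above the 2.42 to 3.47 CPM of the vehicle libraries. Of all genes, 5.61% had every ligand library above every vehicle library. The log2 fold change was 0.67 (SE 0.14, interval 0.37 to 0.98), or 1.6-fold, with an unadjusted p of 0.000211 and an adjusted p of 0.0733. The call changed with the test and with single libraries. Among other settings it passed with DESeq2 (adjusted p = 0.000875) and by edgeR without enzalutamide replicate 1 (0.0293) or enzalutamide replicate 3 (0.0359), and over all alternatives the adjusted p ran from 0.000875 to 0.329. In the authors' deposited table CYP1A2 was 1.6-fold higher with the ligand (adjusted p 8e-04).

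CYP1A1 had 15.1, 13.4 and 12.6 CPM in the ligand libraries, which overlap the vehicle libraries (log2 fold change 0.22, interval -0.11 to 0.55, adjusted p = 0.835). AHR had 28.9, 26.4 and 30.3 CPM in the ligand libraries, and its log2 fold change against vehicle was -0.14 (adjusted p = 0.657). ARNT ran from 80.2 to 82.6 CPM, AHRR from 3.69 to 4.74, CYP1B1 from 5.80 to 6.78 and TIPARP from 15.3 to 18.7 in the ligand libraries, each overlapping vehicle. Their log2 fold changes lay between -0.14 for AHRR and 0.04 for TIPARP.

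Enzalutamide was set against the same vehicle libraries. By edgeR 0 of the 7 members were called, where 1.44% of all genes were called, 0.35% higher and 1.09% lower. CYP1A1, CYP1A2 and CYP1B1 were the 3 members with an unadjusted p under 0.05, and DESeq2 and limma-voom each called 0. The median log2 fold change was -0.02 over the members and 0.00 over all genes.

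CYP1A1 had 18.8, 14.6 and 11.9 CPM in the enzalutamide libraries, which overlap the 10.8 to 13.6 CPM of the vehicle libraries (log2 fold change 0.35, SE 0.15, interval 0.02 to 0.68, adjusted p = 0.467). CYP1A2 had 4.92, 4.08 and 3.25 CPM in the enzalutamide libraries, and its log2 fold change against vehicle was 0.42 (interval 0.11 to 0.72, adjusted p = 0.264). For both genes each of the 3 enzalutamide libraries exceeded the vehicle library of its own number, and so did each ligand and degrader library. How many of all genes do so was not counted. Replicate 1 was the highest of its group for CYP1A1 in every group. Same-numbered enzalutamide and vehicle libraries deviated together across genes (r = 0.396, 0.15 and 0.229). Enzalutamide replicate 2 matched a vehicle library of another number about as well (0.151). The replicate number was also fitted as a block. That block was fitted over all 12 libraries, and so also on the degrader and ligand groups. With it CYP1A1 was called (log2 fold change 0.35, SE 0.07, adjusted p = 0.00515), where 3.12% of all genes were called. With the block and the enzalutamide and vehicle groups alone, CYP1A1 (adjusted p = 0.00155) and CYP1A2 (0.43, adjusted p = 0.0162) were called.

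CYP1B1 had 5.18, 5.57 and 5.29 CPM in the enzalutamide libraries, all below the 6.07 to 6.88 CPM of the vehicle libraries, but its log2 fold change of -0.25 did not pass (interval -0.44 to -0.06, adjusted p = 0.309). TIPARP had 15.0, 15.8 and 14.7 CPM in the enzalutamide libraries, below vehicle in each (-0.12, adjusted p = 0.652). AHRR had 5.11, 5.05 and 5.78 CPM in the enzalutamide libraries, above vehicle in each (0.16, adjusted p = 0.653). Of all genes, 17.1% had groups that lay apart in this comparison. AHR, at 29.9 to 30.0 CPM in the enzalutamide libraries, and ARNT, at 79.9 to 81.6 CPM, had log2 fold changes of -0.06 and -0.02.

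The compounds were then compared directly, which does not use the vehicle levels, although the vehicle libraries enter the estimate of spread. Against the ligand, 4 members were higher with the degrader and 0 lower, where 28.5% of all genes were called, 14.3% higher and 14.2% lower. CYP1A1 was higher by 2.25 on the log2 scale (adjusted p = 3.24e-07), the 15th largest rise, CYP1A2 by 1.55 (3.16e-07) and TIPARP by 0.32 (0.00381). AHR was the remaining one, with 32.8 to 34.6 CPM in the degrader libraries and 26.4 to 30.3 CPM in the ligand libraries (log2 fold change 0.24, SE 0.06, interval 0.10 to 0.37, adjusted p = 0.00906). CYP1B1 was at 0.20 (adjusted p = 0.112), AHRR at 0.17 (0.234) and ARNT at 0.12 (0.0549).

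Against enzalutamide, 5 members were higher with the degrader and 0 lower, where 32.3% of all genes were called, 16.3% higher and 16.1% lower. CYP1A1 was higher by 2.11 (adjusted p = 3.68e-07), CYP1A2 by 1.80 (4.3e-08), TIPARP by 0.48 (0.000122) and CYP1B1 by 0.43 (SE 0.09, 0.00174). The CYP1B1 libraries stood at 6.58 to 7.60 CPM with the degrader and 5.18 to 5.57 CPM with enzalutamide, without overlap. Of all genes, 23.9% had every degrader library above every enzalutamide library. ARNT was higher by 0.13 (adjusted p = 0.039), a call that was lost without degrader replicate 1 or 3, any of the enzalutamide replicates, or vehicle replicate 2 (adjusted p 0.0522 to 0.13), without replicate 1 of every group (0.259) and with the compared groups alone (0.0593). AHR was at 0.16 (0.0559) and AHRR at -0.13 (0.348).

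Between the ligand and enzalutamide, 0 members were called by edgeR, DESeq2 or limma-voom, where edgeR called 2.04% of all genes, 1.37% higher and 0.667% lower; AHRR and CYP1B1 had an unadjusted p under 0.05. AHRR differed by -0.31 on the log2 scale (interval -0.52 to -0.09, adjusted p = 0.229), with 3.69 to 4.74 CPM in the ligand libraries and 5.05 to 5.78 CPM in the enzalutamide libraries. CYP1A1 was at -0.13 (interval -0.46 to 0.19, adjusted p = 0.939) and CYP1A2 at 0.26 (-0.04 to 0.55, 0.661). CYP1B1 was at 0.23 (0.396).

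**Figure D2:**
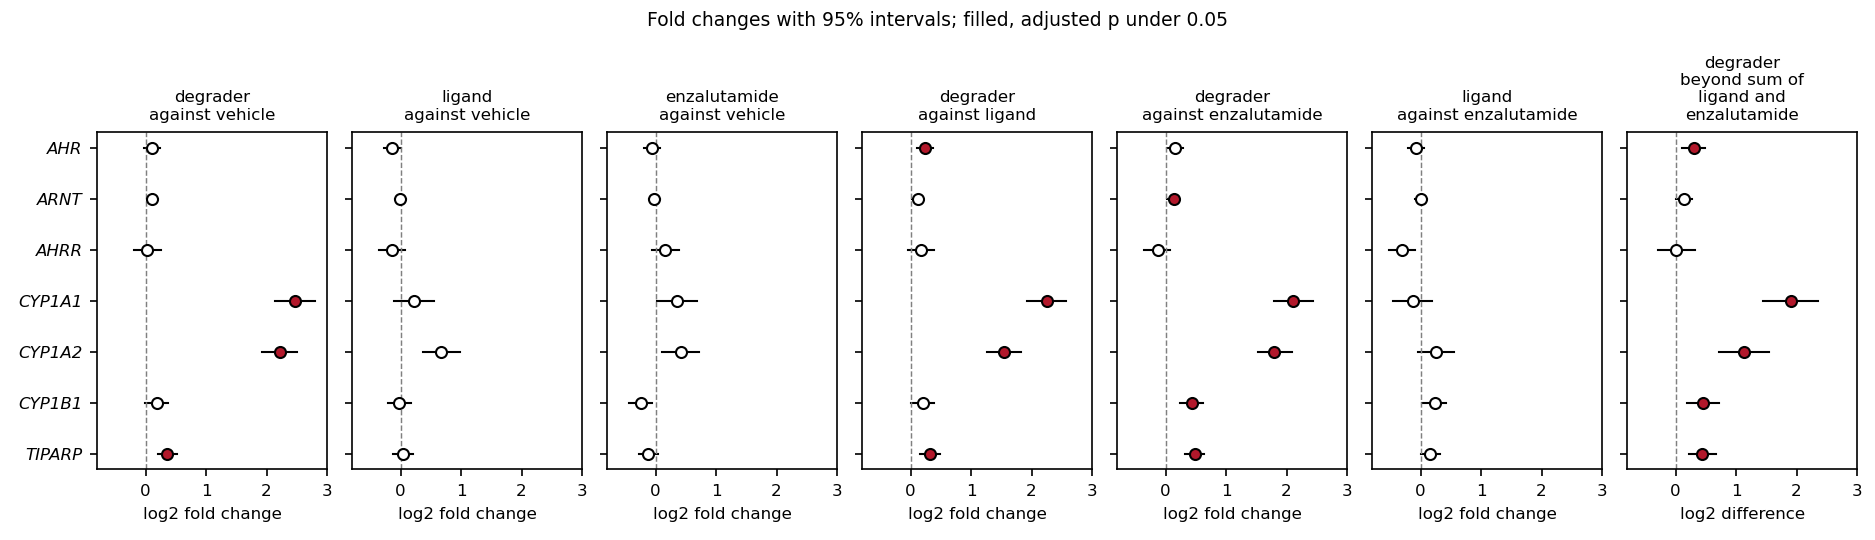
log2 fold changes of the 7 genes in the 6 pairwise comparisons, and in the last panel the log2 difference of the degrader's change from the summed changes of ligand and enzalutamide; bars are 95% confidence intervals and filled points have an adjusted p under 0.05. CYP1A1 and CYP1A2 stand far to the right wherever the degrader is compared, while the interval of AHRR spans 0 in each of those panels.

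One contrast asked whether the degrader's change exceeded the sum of the ligand's and enzalutamide's changes on the log2 scale. It was positive and called for 5 members and negative for 0, where 15.2% of all genes were called, 7.61% positive and 7.61% negative. CYP1A1 exceeded the sum by 1.90 (SE 0.21, interval 1.44 to 2.36, adjusted p = 9.65e-05) and CYP1A2 by 1.13 (SE 0.20, adjusted p = 0.00102). TIPARP exceeded it by 0.44 (adjusted p = 0.00989), with an adjusted p of 0.0502 without replicate 1 of every group. CYP1B1 exceeded it by 0.45 (0.0261), a call that was lost without degrader replicate 1 or 2, ligand replicate 1 or 2, enzalutamide replicate 1 or 3, or vehicle replicate 3 (adjusted p 0.0523 to 0.0739), and without replicate 1 of every group (0.168). AHR exceeded it by 0.30 (0.0305), lost without degrader replicate 2 or 3, ligand replicate 1 or 2, any enzalutamide replicate, or vehicle replicate 2 or 3 (0.0513 to 0.094). The AHR and CYP1B1 values combine small differences from vehicle of opposite sign, positive with the degrader and negative with the ligand and enzalutamide. Neither gene passed in any comparison against vehicle.

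CYP1A1 and CYP1A2 lie head to head and were compared as a ratio within each library. The CYP1A1 to CYP1A2 ratio of TPM was 5.52 ± 0.302 with the degrader, 3.40 ± 0.498 with the ligand, 4.44 ± 0.159 with enzalutamide and 4.73 ± 0.692 with vehicle (mean ± SD, n = 3). Ligand libraries, at 2.92 to 3.92, lay below every library of the other groups, and degrader libraries, at 5.20 to 5.80, lay above the ligand and enzalutamide libraries but overlapped vehicle. With 3 libraries a group the two-sided exact permutation test cannot go below p = 0.1, which it reached for degrader against ligand, degrader against enzalutamide, ligand against enzalutamide and ligand against vehicle (0.15 adjusted over the 6 pairs). The exact permutation test gave p = 0.2 for degrader against vehicle and p = 0.6 for enzalutamide against vehicle. In GENCODE 29 transcripts the genes share 63 exact stretches of 25 bases, 1.99% of those of CYP1A1, and 0 of 50 or more. Whether reads were counted for the wrong one of the pair was not tested.

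**Figure D3:**
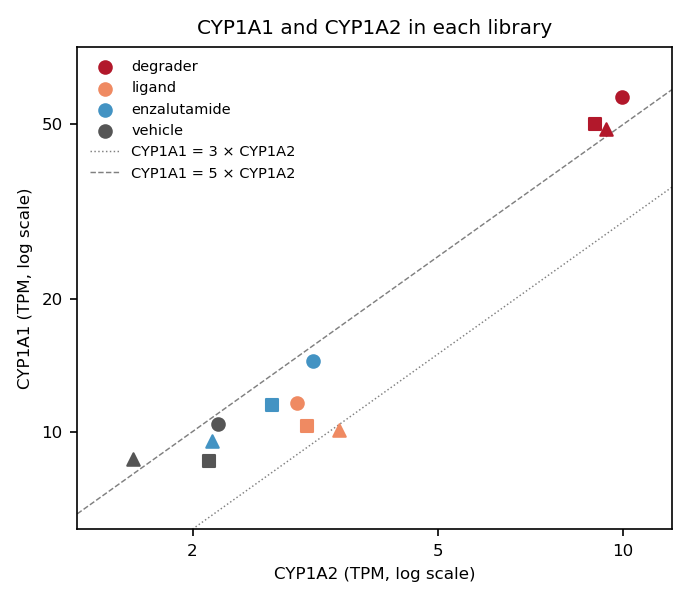
CYP1A1 against CYP1A2 in each of the 12 libraries (TPM, both axes log); colour is the group, circles, squares and triangles are replicates 1, 2 and 3, and the lines mark CYP1A1 at 3 and 5 times CYP1A2. Degrader libraries sit apart at the upper right near the line of 5, and ligand libraries lie nearest the line of 3.

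The nearest tested genes on either side of the CYP1A1 and CYP1A2 pair, taken from the RefSeq gene order, changed less or did not pass. On one side EDC3, an mRNA decapping factor gene, was higher with the degrader by 0.28 (adjusted p = 0.000575) and ARID3B by 0.34 (0.0212), and the kinase gene CLK3 was at -0.01 (0.946). The ARID3B call was lost without degrader replicate 1 or vehicle replicate 2 or 3 (0.0572 to 0.124). On the other side the kinase genes CSK and ULK3 were at 0.02 (0.802) and -0.09 (0.227), and CPLX3, a complexin gene, at -0.29 (0.284).

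The other genes of the pathway were read from 6 lists holding 53 genes tested, and 24 of these were called for degrader against vehicle. Each count below stands beside 32.7% of all genes called in that comparison, 16.4% higher and 16.4% lower, and a share near these is no feature of a list. The list of the AhR complex held chaperone, co-chaperone, ubiquitin ligase and cullin genes. Of the 5 genes read from it, 4 fell and 0 rose (median -0.24, against 0.01 over all genes), where 16.4% of all genes fell. HSP90AA1 fell by 0.51 (adjusted p = 3.09e-07), HSP90AB1 by 0.38 (1.09e-06), the co-chaperone gene PTGES3 by 0.24 (0.0013) and the ubiquitin ligase gene STUB1 by 0.23 (0.0227). The STUB1 call was lost without degrader replicate 3 or vehicle replicate 1 or 2 (0.0737 to 0.097). The remaining gene, the cullin CUL4B, was at 0.12 (0.191).

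Among 11 tested genes of the PAS family and its coactivators, 4 rose and 1 fell (median 0.04), where 16.4% of all genes were called in each direction. EPAS1, the hypoxia-inducible factor that also pairs with ARNT, rose by 0.44 (0.00107), while HIF1A was at -0.11 (0.175). The coactivator genes NCOA1 (0.29, 0.000518), NCOA3 (0.16, 0.0264) and NCOA2 (0.19, 0.0485) rose, and the clock-related NPAS2 fell by 0.71 (5.41e-05). The NCOA3 call was lost without degrader replicate 2 or 3 or any vehicle replicate (0.0519 to 0.127). The NCOA2 call was lost under several other settings, limma-voom among them (0.0542), and without degrader replicate 2 or 3, ligand replicate 2, enzalutamide replicate 2 or 3, or vehicle replicate 1 or 2 (0.0524 to 0.199).

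Of 14 tested other genes known to be induced through AhR, 3 were higher and 2 lower (median 0.06), a share close to the 32.7% called among all genes. STC2, a secreted glycoprotein gene, rose by 0.90 (7.69e-08), the amino acid transporter gene SLC7A5 by 0.64 (8.15e-08) and the EGF receptor ligand gene AREG by 0.56 (0.00526). UGT1A1, a glucuronidation gene, fell by 0.53 (7.98e-05) and the adaptor gene NEDD9 by 0.29 (0.0282), the NEDD9 call being lost without degrader replicate 1 or 3 or vehicle replicate 1 or 3 (0.0526 to 0.108). UGT1A1 shares 36.3% of its 50-base stretches with UGT1A6 (0.23, 0.684), so reads of these genes could be assigned to either. The textbook phase 2 and aldehyde dehydrogenase targets NQO1 (0.06, 0.53) and ALDH3A1 (-0.39, 0.339) did not pass, nor did CYP2S1 (0.80, 0.0845). ALDH3A1 averaged 0.374 CPM with the degrader and 0.502 CPM with vehicle (SE 0.30). CYP2S1 averaged 0.324 CPM with the degrader and 0.188 CPM with vehicle (SE 0.34). At such low levels a change of either gene could be missed.

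Of 7 tested genes for other xenobiotic P450 enzymes, transporters and their nuclear receptors, 1 rose and 1 fell (median 0.22), beside 32.7% called among all genes. The transporter gene ABCC2 rose by 0.23 (0.00115) and CYP2C8 fell by 0.80 (3.05e-05), and the pregnane X receptor gene NR1I2 was at -0.19 (0.715). NR1I2 averaged 0.215 CPM with the degrader and 0.244 CPM with vehicle (SE 0.34), a level at which a change could be missed. CYP3A4 and CYP2B6, the usual induced genes of that receptor, were not listed. Of 11 genes for P450 electron donors and heme synthesis, 3 rose and 3 fell (median -0.09), where 16.4% of all genes were called in each direction. POR, the P450 reductase gene, rose by 0.25 (0.00752), and ALAS1, the first enzyme of heme synthesis, by 0.17 (0.0134). PPOX rose by 0.23 (0.0165), while CYB5A fell by 0.27 (0.00246), UROS by 0.21 (0.0321) and FECH by 0.16 (0.0102). POR was at 0.0525 without replicate 1 of every group and ALAS1 at 0.0588 without vehicle replicate 2. The calls were lost for PPOX without degrader replicate 1 or vehicle replicate 2 or 3 (0.0509 to 0.0946), for FECH without degrader replicate 2 or vehicle replicate 2 (0.0629 to 0.0699), and for UROS without degrader replicate 2 or 3 or vehicle replicate 1 or 2 (0.0596 to 0.139).

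Enzymes of tryptophan breakdown make kynurenine, an AhR agonist of the body's own. Of this list 5 of 10 genes were tested, and IDO1, TDO2 and IDO2, which catalyse the first step, were not listed. AADAT fell by 0.28 (0.0147) and AFMID by 0.27 (0.0423), with a list median of -0.27, where 16.4% of all genes were called lower. The AADAT call was lost without degrader replicate 1 or 2 or vehicle replicate 2 (0.0501 to 0.069), and the AFMID call without any degrader replicate, enzalutamide replicate 2 or 3, or vehicle replicate 1 or 2 (0.0527 to 0.218). The AFMID value was -0.17 without vehicle replicate 1 and -0.16 without replicate 1 of every group (0.345), and its call was also lost with scaling by total count (0.0586) and with the compared groups alone (0.0689).

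Against vehicle the ligand changed 0 of these 53 genes by edgeR, where 0.237% of all genes were called. By edgeR's unadjusted p, 5 of the 53 were under 0.05. DESeq2 and limma-voom each called 0 as well. By edgeR enzalutamide changed 1, where 1.44% of all genes were called. This was UGT1A1, which averaged 19.3 ± 1.88 CPM with enzalutamide and 27.7 ± 1.81 CPM with vehicle (log2 fold change -0.52, adjusted p = 0.00115). With the replicate number as a block 3 were called, HIF1A, NCOA2 and UGT1A1, and DESeq2 called 2, HIF1A and UGT1A1. Between ligand and enzalutamide edgeR called 1, where 2.04% of all genes were called, and DESeq2 called 2, HIF1A and UGT1A1. UGT1A1 stood at 31.2 ± 2.73 CPM with the ligand and 19.3 ± 1.88 CPM with enzalutamide (0.70, adjusted p = 4.95e-05).

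**Figure D4:**
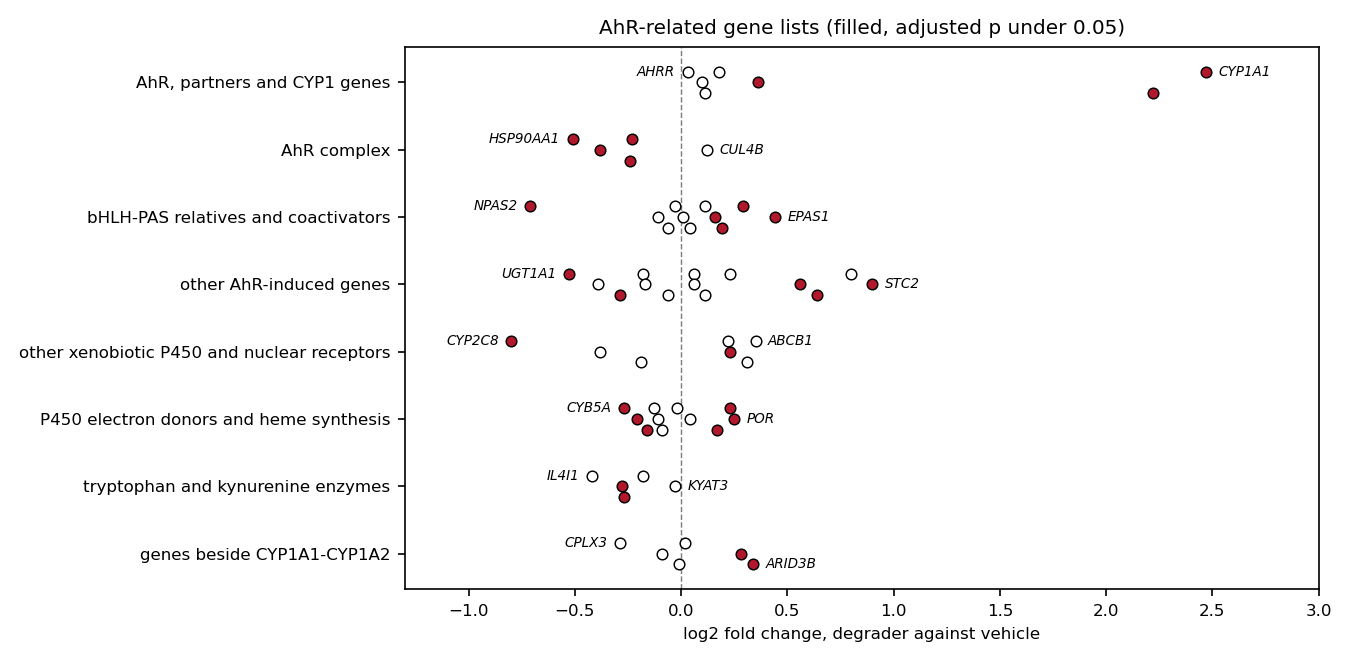
log2 fold change of degrader over vehicle for the 7 genes, the 6 pathway lists and the neighbours of the CYP1A1 and CYP1A2 pair; each point is a gene, filled where the adjusted p is under 0.05, with the lowest and highest gene of a row named. CYP1A1 (2.47) and CYP1A2 (2.22) lie far right of every gene of the other rows, whose highest is STC2 at 0.90.

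The genes whose pattern across the 12 libraries was most like that of CYP1A1 were ranked by Pearson's r of log2 CPM over 14356 genes. They were GOLGA2 (r = 0.991), the small nucleolar RNA host gene GAS5 (0.991), RBCK1 (0.987), CAPN5 (0.987) and CARS1 (0.986), with log2 fold changes of degrader over vehicle of 0.54, 0.63, 1.12, 1.77 and 0.57. An r over all 12 libraries includes differences between groups, and r within groups was not computed for these genes. Like CYP1A1, they stood higher in the degrader group than in the rest. GOLGA2, for example, averaged 177 ± 4.65 CPM with the degrader, 122 ± 2.96 CPM with the ligand, 125 ± 4.07 CPM with enzalutamide and 121 ± 1.32 CPM with vehicle. For CYP1A2 the 2 most alike genes were FAM102A (r = 0.983) and NPHS1 (0.982).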

How the data were processed

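RNA from 12 libraries of 22Rv1 cells was sequenced after poly(A) selection with a stranded kit, per the labels' protocols. Reads were processed with HISAT2, StringTie and GRCh37, per the submitters' processing notes, with versions not given in the sources used here. The authors deposited raw read counts per gene, and TPM values, which are scaled to transcript length and library size. The deposited score is the authors' signed linear fold change against vehicle, and the deposited p-value column is their Benjamini-Hochberg adjusted p, from a test not given in the sources used here. The table lists genes with at least 1 read in every library; 24 further per-sample columns were not used.

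Of 18668 genes, 17702 passed edgeR's filterByExpr (minimum count 10, minimum total 15). Counts were scaled by TMM (factors 0.987 to 1.016) and fitted with edgeR's robust quasi-likelihood model on all 12 libraries by group, with 8 residual degrees of freedom; 7 contrasts were tested and p-values adjusted over all genes within each, not across contrasts. The SE is the log2 fold change over the square root of F. Comparisons against vehicle share its 3 libraries. The chi-square of replicate libraries, divided by its degrees of freedom, was 5.48 to 22.4, so over all genes together replicates differed by more than counting error; for members at a few CPM counting error is not negligible. Software was edgeR 4.0.16, DESeq2 1.42.0, limma 3.58.1 and data.table (1.17.8) under R 4.3.3. The model was tested on simulated data.

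The 7 genes and the lists were chosen with earlier results of these data known; some list members are not reported here and are left out of the counts. Genes named beside the 7 are the called members of each list, its best-known members and the genes with the highest r. The 3 nearest tested genes on each side of the CYP1A1 and CYP1A2 pair are also named. Genes there that were not listed or not tested were skipped. Of 18 pairs of same-numbered libraries, 13 had deviations correlated over 0.1. Every pair did so for enzalutamide and vehicle only (0.396, 0.15 and 0.229), so the numbers were taken to pair those groups. Enzalutamide replicate 2 matched a vehicle library of another number about as well (0.151). Degrader and ligand missed the mark of 0.1 narrowly, at 0.0942 for replicate 2 beside 0.137 and 0.42. The choice of paired groups therefore rests on that mark. Alternatives were another scaling, DESeq2, limma-voom, other filters, a replicate block, the compared groups alone, and leaving out libraries.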

Additional observations from a re-analysis of the deposited data

How the results depend on the processing

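CYP1A1, CYP1A2 and TIPARP were called higher with the degrader against vehicle, ligand and enzalutamide under every alternative run, with log2 fold changes against vehicle of 2.37 to 2.59, 2.09 to 2.33 and 0.31 to 0.41. Among all values of the 7 genes under alternatives, 1015 kept direction and side of the threshold, 26 lost a call, 19 gained one and 18 changed sign, each of the last in a gene that was not called. For ligand against vehicle, 42 genes were called; DESeq2 called 121, a replicate block 191 and the compared groups alone 25, and leaving out libraries gave 21 to 77 (23 without replicate 1 of every group). Members called there were 1 with DESeq2, 1 with the block (CYP1A2 in both, adjusted p = 0.00453 with the block) and 0 to 1 with libraries left out. For enzalutamide against vehicle, 255 genes were called, against 392 with DESeq2, 553 with the replicate block, 1483 with the block and these groups alone (an alternative added after seeing the data) and 136 (without replicate 1 of every group) to 306 with libraries left out; members called were 1 and 2 with these blocks. For ligand against enzalutamide, 361 genes became 613 with the block, 229 to 355 without single libraries (lowest without enzalutamide replicate 3) and 204 without replicate 1 of every group. For the excess over the sum, 2694 became 4463 with the block and 1355 to 3668 without libraries, with 3 to 5 members. With libraries left out, degrader against vehicle had 4012 to 6182 genes and 3 to 4 members, against ligand 3395 to 5408 and 4 to 5, and against enzalutamide 4027 to 6187 and 4 to 6. The replicate block rests on numbers taken to pair only enzalutamide and vehicle, since in the other comparisons some pairs correlated at 0.1 or less. Of 18 pairs, 12 had their own number as best match. Sign changes without libraries stayed within -0.09 to 0.09 for AHRR over the sum (-0.05 without replicate 1 of every group), -0.01 to 0.06 for AHRR against vehicle with the degrader, -0.02 to 0.01 for ARNT, -0.07 to 0.04 for CYP1B1 and -0.03 to 0.11 for TIPARP with the ligand, -0.28 to 0.06 for CYP1A1 and 0.00 to 0.02 for ARNT between ligand and enzalutamide, and -0.03 to 0.00 for ARNT with enzalutamide. Scaling by total count gave 0.00 for ARNT between ligand and enzalutamide. Without replicate 1 of every group these calls for degrader against vehicle were also lost: STUB1 (0.126), NCOA3 (0.0752), NEDD9 (0.269), ALAS1 (0.052), UROS (0.0778), PPOX (0.0888), AADAT (0.07) and ARID3B (0.135). For degrader against vehicle, ARNT was called with scaling by total count (0.0334), with the block (0.0335) and without degrader replicate 2 (0.0361). For degrader against ligand, ARNT was called with total count (0.0289), DESeq2 (0.0471), the block (0.0254) and without degrader replicate 2 (0.0381). For degrader against enzalutamide, AHR was called with those groups alone (0.0306) and with the block (0.023). It was also called there without ligand replicate 2 (0.0352), ligand replicate 3 (0.0415) or vehicle replicate 1 (0.039). The cause of these shifts was not tested.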

Other observations

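The table listed 27 genes of the cytochrome P450 superfamily, a set chosen after values were seen. Against vehicle the degrader raised 6 of them and lowered 3 by edgeR (median log2 fold change 0.14), where 32.7% of all genes were called. Beside CYP1A1 and CYP1A2, the rises were CYP51A1, the lanosterol demethylase of cholesterol synthesis (0.86), the oxysterol hydroxylase gene CYP7B1 (0.55), the fatty acid hydroxylase gene CYP4V2 (0.36) and CYP20A1 (0.28). CYP4F22, a hydroxylase gene of skin ceramide synthesis, fell by 1.61 (SE 0.28), CYP4F8 by 1.03 and CYP2C8 by 0.80. CYP4F22 was low, at 0.207 TPM with the degrader and 0.648 TPM with vehicle. CYP7B1 was also low, at 0.347 TPM with the degrader and 0.228 TPM with vehicle (SE 0.19, edgeR adjusted p = 0.0303). Calls of P450 genes outside the 7 members and the lists were not rerun under the alternatives. Against the same vehicle libraries enzalutamide lowered 1 by edgeR, CYP4F8 (-0.74, adjusted p = 0.00138). In that comparison 1.44% of all genes were called, 1.09% lower.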
